A study of Macaca mulatta with 12 samples.

Results

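Transcripts of 7 genes that make, take up, break down or sense GABA were followed in the dorsal raphe nucleus of rhesus macaques given ovarian hormones. The genes were GAD1, GAD2, SLC6A11, SLC6A12, ABAT, ALDH5A1 and GABBR1. The genes were read from all probe sets whose only gene symbol in the platform's probe table was 1 of these names. That gave 10 probe sets for 7 of the 8226 genes that the array names singly, with 3 for ABAT, 2 for GAD2 and 1 for each other gene. Of the 10, 6 were bright enough to be tested and covered every gene except SLC6A12.

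The study placed 12 female monkeys in 4 groups of 3, with 1 human Affymetrix U95 array per monkey. The groups carried placebo, estrogen (E), progesterone (P), or estrogen and progesterone (EP) in Silastic capsules under the skin for 1 month, and the sources used here give neither the capsules' doses and steroid compounds nor the animals' ages. The source names of the placebo animals carry the code OVX, a common short form of ovariectomized that the labels do not spell out, and they do not say whether the hormone animals had the same surgery. The progesterone arrays carry the EP code in their titles and P1 to P3 in their source names, and were grouped by the latter.

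GABA is the main inhibitory transmitter of the brain. Neurons make it from glutamate with the glutamate decarboxylases GAD1 and GAD2, membrane transporters of the SLC6 family clear it from the extracellular space, and the mitochondrial enzymes ABAT and ALDH5A1 convert it to succinate. In the dorsal raphe, local GABA neurons and incoming fibres restrain serotonin neurons through GABA-A channels and through GABA-B receptors, which are coupled to G proteins and built from the subunits GABBR1 and GABBR2.

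The arrays had a common trimmed mean of 200.1 and median intensities between 74.2 and 87.1, in the arbitrary units of the deposited values. Estrogen array 1 and estrogen plus progesterone array 1 read 841 and 1354 on the 28S ribosomal RNA control, against 64.2 to 179 on the other 10 arrays, and their ratios of 3' to 5' GAPDH signal were 2.45 and 2.05 against at most 1.46. Changes of SLC6A11, ABAT, ALDH5A1 and GAD1 are given with and without these 2 arrays. Serotonin markers were present, with the serotonin transporter SLC6A4 at 435 ± 39.9 (SD, n = 3) and the serotonin neuron transcription factor FEV at 150.5 ± 34.4 with placebo, while TPH1 was under the brightness filter and no probe set was named TPH2 alone. Human probes were read with macaque RNA and lengths per probe set are unknown, so intensities were compared between groups. Differences in intensity between genes were not read as differences in transcript amount.

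No member passed the threshold in any comparison, and among the comparisons fitted the clearest difference was between progesterone alone and both hormones. There the astrocyte GABA transporter SLC6A11, the GABA transaminase ABAT and the receptor subunit GABBR1 read higher with both hormones. For each, all 3 arrays with both hormones lay above every progesterone array. Of all tested probe sets, 15.7% had groups that did not overlap in this comparison. Estrogen alone was not fitted against progesterone alone, though all SLC6A11 and GABBR1 estrogen arrays also lay above every progesterone array. The share of all probe sets apart in that way was not counted. With both hormones, the highest SLC6A11 and ABAT readings, 985 and 359, came from the array with high ribosomal RNA signal. The highest GABBR1 reading of that group did not. The decarboxylase GAD2 had almost the same mean in all 4 groups. Changes are given as log2 differences of normalised intensity from limma with their standard error (SE), and adjusted p-values use the Benjamini-Hochberg method over all 7535 tested probe sets with a threshold of 0.05.

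**Figure D1:**
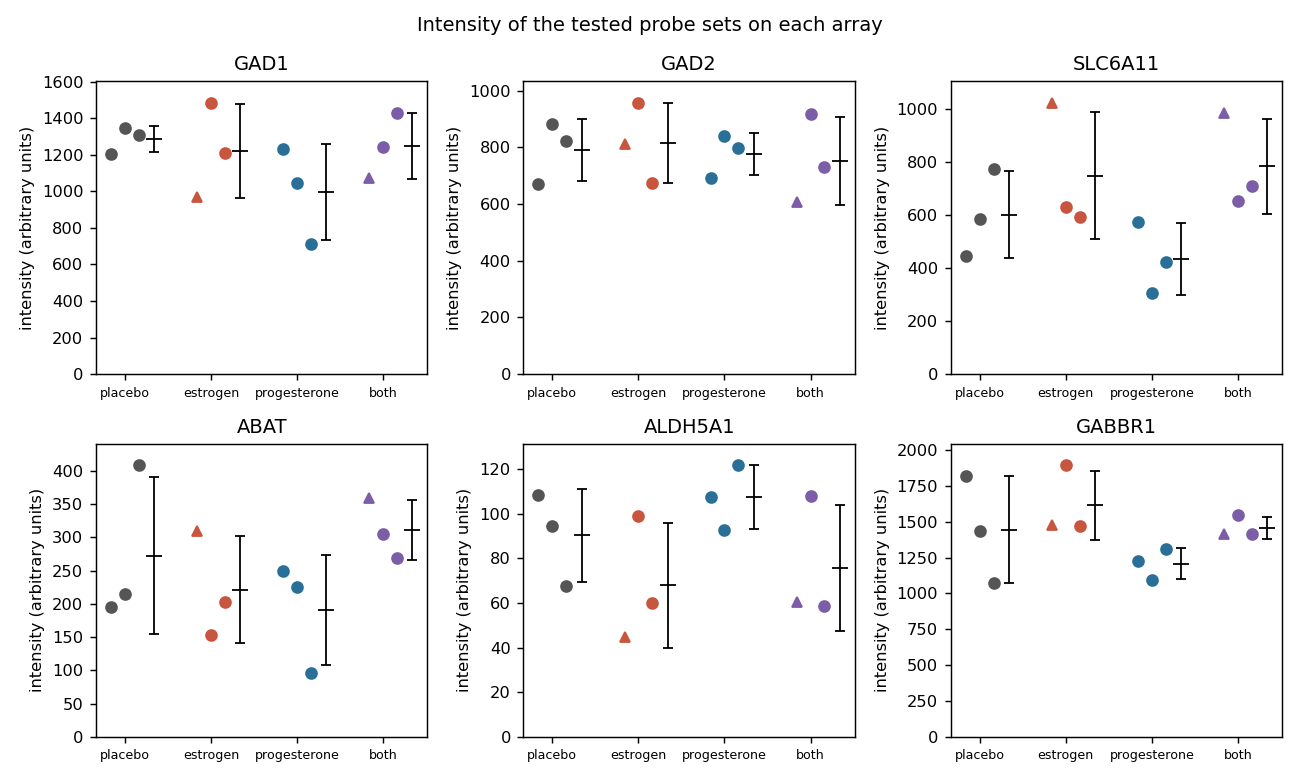
Intensity (arbitrary units, linear axis from 0) of the 6 tested probe sets on each of the 12 arrays, by treatment ("both" is estrogen plus progesterone). Each point is 1 monkey, triangles mark the 2 arrays with high ribosomal RNA signal, and the bar beside the points is the mean ± SD of 3. SLC6A11 read 305 to 572 with progesterone and 653 to 985 with both hormones, while the GAD2 groups overlapped throughout.

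GAD1 encodes the decarboxylase that supplies most GABA in the cell body and terminals. It read 1205, 1346 and 1308 on placebo arrays 1 to 3. The estrogen arrays read 971, 1484 and 1212. The progesterone arrays read 1229, 1044 and 713. The placebo readings lay close together, while progesterone array 3 was the lowest of all 12 and estrogen array 2 the highest. With both hormones the arrays read 1072, 1240 and 1431, and every pair of groups overlapped.

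The log2 change of GAD1 from placebo was -0.088 ± 0.22 (SE) with estrogen, -0.41 ± 0.22 with progesterone and -0.037 ± 0.22 with the combination. The 95% interval with progesterone ran from -0.89 to 0.07, or -46.2% to 4.78%, and limma's adjusted p was 0.680. Both hormones against progesterone gave 0.38 ± 0.22 (adjusted p = 0.709). Without the 2 arrays of high ribosomal signal the changes from placebo with estrogen and with both hormones were 0.034 and 0.057, and without progesterone array 3 alone the GAD1 change with progesterone was -0.20 in place of -0.41 and that of both hormones against progesterone 0.16 in place of 0.38.

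GAD2 encodes the decarboxylase bound to synaptic vesicle membranes, which supplies GABA for release during activity. Its bright probe set read 671, 883 and 822 with placebo. It read 813, 958 and 675 with estrogen. It read 694, 840 and 798 with progesterone. With both hormones it read 608, 917 and 732, and no group stood clear of another.

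Its changes from placebo were 0.049 ± 0.20 (SE) with estrogen, -0.021 ± 0.20 with progesterone and -0.075 ± 0.20 with the combination. The 95% intervals were -23.8% to 40.5% with estrogen, -27.4% to 33.9% with progesterone and -30.1% to 28.9% with both. They bound the size of a GAD2 change at this probe set and do not show that there was none. The second GAD2 probe set read 4.59 to 33.4 over the 12 arrays, under the filter, with 3 arrays below the offset of 8.26 that was added before the log, and in the fit without a filter its change for both hormones against progesterone was -0.89 ± 0.34 (limma adjusted p = 0.617), where the bright probe set gave -0.054 ± 0.20.

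The 2 decarboxylases were also set against each other within each array. The normalised log2 value of GAD1 minus that of GAD2 was 0.64 to 0.79 on the placebo arrays, 0.26 to 0.79 on the estrogen arrays, -0.15 to 0.81 on the progesterone arrays and 0.46 to 0.95 with both hormones. All 4 ranges overlapped. The zero of this difference has no meaning, because the 2 probe sets differ in brightness for reasons other than transcript amount, and only its spread between arrays can be read.

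SLC6A11 encodes a GABA transporter found mainly on astrocyte processes. It read 446, 583 and 773 with placebo. It read 1022, 629 and 593 with estrogen. It read 572, 305 and 424 with progesterone. The highest placebo array lay above 2 of the 3 estrogen arrays and above all 3 progesterone arrays. With both hormones it read 985, 653 and 707, which placed all 3 of these arrays above all 3 progesterone arrays. The 3 estrogen arrays lay above all 3 progesterone arrays as well.

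For SLC6A11, both hormones against progesterone gave a log2 change of 0.85 ± 0.31 (SE), a 1.80-fold difference with a 95% interval of 1.14 to 2.86, and limma's adjusted p was 0.512. The unadjusted p was 0.0168, the only one below 0.05 among the 6 tested members in this comparison, where 7.71% of all tested probe sets had such a p. Against placebo the change was 0.31 ± 0.31 with estrogen, -0.47 ± 0.31 with progesterone and 0.38 ± 0.31 with the combination (limma adjusted p of 0.9999, 0.739 and 0.999). None of these passed.

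The 2 highest SLC6A11 readings came from the 2 arrays with high ribosomal signal. Without them the change was 0.035 with estrogen, 0.19 with both hormones, and 0.66 for both hormones against progesterone (limma adjusted p = 0.511). The 2 remaining arrays with both hormones still lay above the 3 progesterone arrays. The part of ribosomal signal in the SLC6A11 readings was not tested beyond leaving these arrays out.

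**Figure D2:**
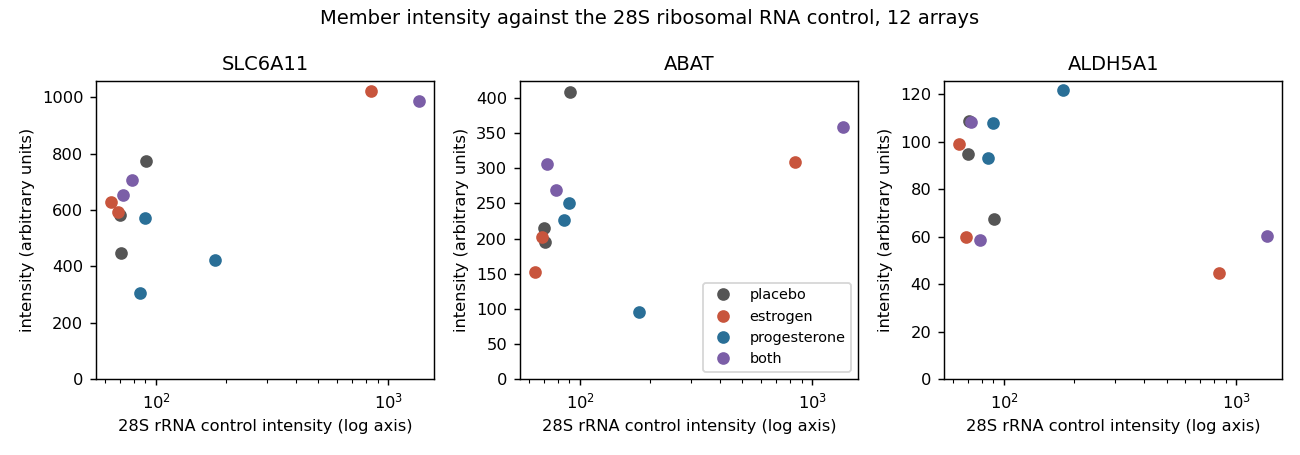
Intensity of SLC6A11, ABAT and ALDH5A1 (arbitrary units, axes from 0) against the 28S ribosomal RNA control on a log axis, with 1 point per array and the treatments in colour. The 2 points at the right, at 841 and 1354, hold the 2 highest SLC6A11 readings (1022 and 985) and the lowest ALDH5A1 reading (44.8), while the highest ABAT reading (408) is a placebo array.

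SLC6A12 encodes a transporter of betaine and GABA. Its probe set read 18.5 to 67.0 on the placebo arrays, 25.4 to 46.7 under estrogen, 20.2 to 71.7 under progesterone and 18.9 to 33.2 under the combination. All 12 readings lay above the offset, but their mean was under the filter, and the ranges overlapped in every pair of groups. In the fit without a filter its change from placebo was -0.27 ± 0.48 (SE), -0.30 ± 0.48 and -0.60 ± 0.48 with estrogen, progesterone and both hormones (limma adjusted p of 0.9993, 0.948 and 0.9998). No change of SLC6A12 was detectable at this signal.

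ABAT encodes GABA transaminase, the mitochondrial enzyme that starts the breakdown of GABA. Its bright probe set read 195, 214 and 408 with placebo. It read 309, 153 and 203 with estrogen. It read 250.2, 226 and 95.8 with progesterone. The lowest reading of all was progesterone array 3 and the highest placebo array 3. With both hormones it read 359, 306 and 269, above every progesterone array and overlapping the other groups.

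The log2 change of ABAT for both hormones against progesterone was 0.76 ± 0.37 (SE), with a 95% interval of -0.055 to 1.58 and a limma adjusted p of 0.661. From placebo it was -0.27 ± 0.37 with estrogen, -0.52 ± 0.37 with progesterone and 0.24 ± 0.37 with both. Without progesterone array 3, both hormones against progesterone gave 0.35 and progesterone against placebo -0.11. Without the 2 arrays of high ribosomal signal ABAT was -0.52 with estrogen, 0.13 with the combination and 0.66 for both hormones against progesterone. Without placebo array 3 the estrogen change was 0.039 in place of -0.27. The interaction of the hormones, which asks whether the effect of progesterone differed in the presence of estrogen, was 1.03 ± 0.53 for ABAT (adjusted p = 0.966), the largest interaction estimate among the 6 tested members.

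The other ABAT probe sets were dim. One read 8.87 to 45.1 and the other 1.17 to 10.1 over the 12 arrays, the latter below the offset on 7 of them. In the fit without a filter their changes for both hormones against progesterone were -0.28 ± 0.47 (SE) and 0.46 ± 0.25, so the 3 ABAT probe sets did not all point the same way. The dimmest one read 9.62 to 10.1 with both hormones, next to the offset, and lay above all its progesterone arrays.

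ALDH5A1 encodes succinic semialdehyde dehydrogenase, which completes the conversion to succinate. It read 109, 94.7 and 67.6 with placebo. It read 44.8, 99.1 and 59.8 with estrogen. It read 108, 93.0 and 122 with progesterone. The progesterone arrays were tight and held the highest reading, and estrogen array 1 the lowest. With both hormones it read 60.3, 108 and 58.5, and every pair of groups overlapped.

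The ALDH5A1 change from placebo was -0.46 ± 0.32 (SE) with estrogen, 0.24 ± 0.32 with progesterone and -0.31 ± 0.32 with the combination. For both hormones against progesterone it was -0.56 ± 0.32 (limma adjusted p = 0.700), the opposite sign to SLC6A11 and ABAT in the same comparison. Without the 2 arrays of high ribosomal signal the estrogen change was -0.16, both hormones against placebo gave -0.16, and both hormones against progesterone gave -0.40. ALDH5A1 was the dimmest tested member, and this offset-based scale understates changes of dim probe sets.

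GABBR1 encodes the subunit of the GABA-B receptor that binds GABA. It read 1823, 1436 and 1075 with placebo. It read 1475, 1893 and 1473 with estrogen. It read 1224, 1091 and 1312 with progesterone. The placebo arrays spread the most, and the single highest reading was estrogen array 2. With both hormones it read 1413, 1548 and 1416, so that every array with estrogen, alone or with progesterone, lay above every array with progesterone alone.

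The GABBR1 change from placebo was 0.22 ± 0.19 (SE) with estrogen, -0.22 ± 0.19 with progesterone and 0.093 ± 0.19 with the combination. Both hormones against progesterone gave 0.31 ± 0.19, a 1.24-fold difference with a 95% interval of 0.93 to 1.66 (limma adjusted p = 0.734). Its interaction was 0.090 ± 0.27. The change with progesterone lay between -0.39 and -0.083 over the alternatives, and leaving out placebo array 3 or 1, the lowest and highest of their group, gave these ends. The change with estrogen was 0.054 without placebo array 3.

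**Figure D3:**
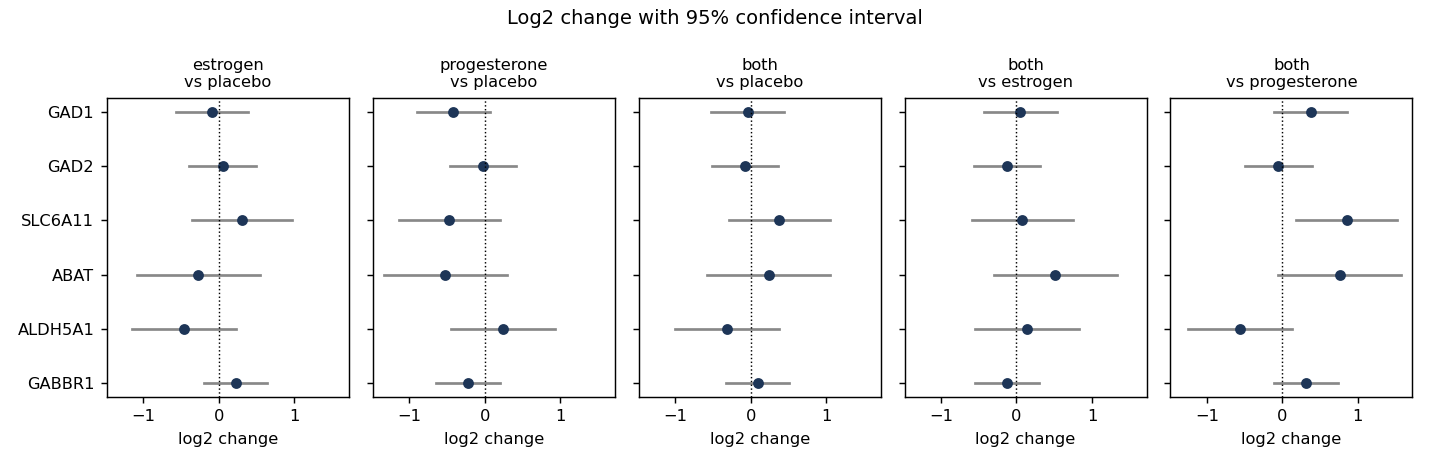
Log2 change (point) with its 95% confidence interval (line) from limma for the 6 tested probe sets in 5 comparisons ("both" is estrogen plus progesterone, dotted line at 0). Of the 30 intervals drawn, only that of SLC6A11 for both hormones against progesterone leaves out 0, and its adjusted p of 0.512 did not pass.

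Counted over the 6 tested members, limma called 0 in each comparison. With estrogen against placebo 0 members passed and 0 had an unadjusted p under 0.05, beside 0% and 3.16% of all 7535 probe sets, and 0 had groups that did not overlap (6.13% of all). With progesterone against placebo the member counts were 0 and 0, beside 0.0398% and 8.24% of all, with 0 not overlapping (16.7%). For both hormones against placebo they were 0 and 0, beside 0.0133% and 3.38%, with 0 not overlapping (8.92%).

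Both hormones against estrogen alone gave log2 changes from -0.13 for GABBR1 to 0.51 for ABAT. Between same-numbered arrays of these 2 groups, ABAT was higher with both hormones in 3 of 3 pairs, GABBR1 in 0 and the other tested members in 1 or 2. The share of all probe sets with 3 or 0 of 3 was not counted, and the labels do not say that the numbers pair animals. With the pairs as a block, chosen after seeing the data, limma's adjusted p was 0.919 for ABAT and 0.947 for GABBR1. Adding progesterone to estrogen gave 0 and 0, beside 0% and 2.87%, with 0 not overlapping (6.74%). Adding estrogen to progesterone gave 0 passed and 1 with an unadjusted p under 0.05, beside 0.0133% and 7.71%, and 3 of 6 not overlapping, where 15.7% of all probe sets did not overlap. These 3 were SLC6A11, ABAT and GABBR1, and the progesterone arrays they share make the 3 separations one reading of the same animals.

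The interaction gave 0 and 0, beside 0% and 4.99% of all probe sets. The mean of the 3 hormone groups against placebo gave 0 and 0, beside 0.0133% and 4.26%, with 0 not overlapping (0.451%). The F test over all 4 groups gave 0 and 0, beside 0.0531% and 5.79%, and the lowest adjusted p of a member was 0.856, for SLC6A11.

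With progesterone against placebo 5 of the 6 tested members had a log2 change below 0 (49.6% of all probe sets did), and their median was -0.32 against 0.0022 over all tested. With both hormones against progesterone 4 of 6 were above 0 (49.7% of all), with a median of 0.34 against -0.0026. These 2 comparisons share the 3 progesterone arrays, so their opposite signs are not separate observations. With estrogen against placebo the median was -0.019, with 3 members above and 3 below 0, and with both hormones against placebo it was 0.028, again with 3 and 3.

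The partners of these genes were read from lists of the pathway. Of 20 genes of GABA handling and GABA-B partnership, 14 were measured and tested, and 0 passed limma's threshold in any comparison. No probe set was named SLC32A1 alone, so the vesicular GABA transporter was not analysed here. GABBR2, the subunit that pairs with GABBR1 and couples to the G protein, read 950.5 ± 147 on the placebo arrays and 1042 ± 175 under estrogen, against 699.7 ± 238 under progesterone alone and 1012 ± 194 under the combination (SD, n = 3). Its change was -0.48 ± 0.25 (SE) with progesterone and 0.57 ± 0.25 for both hormones against progesterone (limma adjusted p of 0.673 and 0.607), while its arrays overlapped, with progesterone array 1 at 961.

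GLUL, the astrocyte enzyme that turns glutamate into glutamine for reuse by GABA neurons, read 718 ± 172, 751 ± 136, 510 ± 65.2 and 697 ± 62.7 in the order placebo, estrogen, progesterone and both (SD, n = 3). Its change was -0.45 ± 0.20 (SE) with progesterone and 0.45 ± 0.20 for both hormones against progesterone (limma adjusted p of 0.573 and 0.607). SLC6A13 is a further GABA transporter and the neighbour of SLC6A12 in the macaque RefSeq annotation. It read 40.8 ± 8.9 with placebo and 100.1 ± 47.7 with estrogen, a change of 1.03 ± 0.34 (SE) that did not pass (limma adjusted p = 0.9999). Its estrogen arrays, at 56.0 to 151, lay above its placebo arrays, at 30.6 to 46.8, where 6.13% of all probe sets did not overlap. The estrogen array of high ribosomal signal read 93.5. GABARAP, which binds GABA-A receptors and serves autophagy, kept within 0.16 log2 units of placebo in each hormone group.

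The GABA-B effectors, the G proteins, potassium and calcium channels and cyclases that the receptor acts on, had 9 tested genes of 16 listed, and the GABA-A subunits 7 of 19. Limma called 0 genes of either list in each comparison. Their medians with progesterone against placebo were 0.0059 and 0.27, and for both hormones against progesterone 0.12 and -0.49. Unadjusted p-values under 0.05 in these comparisons came from KCNJ6, a potassium channel subunit opened by GABA-B receptors (-0.67 ± 0.24 and 0.62 ± 0.24, SE), and from the GABA-A subunit GABRB2 (1.002 ± 0.24 and -0.94 ± 0.24). Of all tested probe sets, 8.24% with progesterone against placebo and 7.71% for both hormones against progesterone had such a p. KCNJ6 and GABRB2 were singled out after their values were seen, and their lowest limma adjusted p was 0.313.

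**Figure D4:**
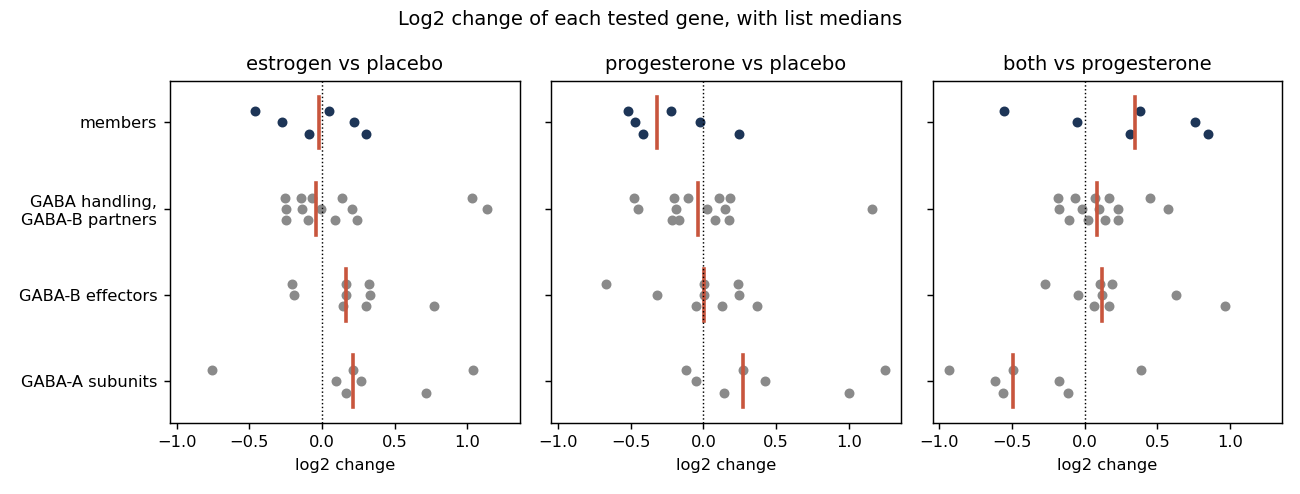
Log2 change of every tested gene of the 4 lists in 3 comparisons, with 1 point per gene, a red bar at each list's median and a dotted line at 0. For both hormones against progesterone the members' median was 0.34 and that of the GABA-A subunits -0.49, and no point passed the adjusted threshold.

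Markers of cell types were read beside these values. Of 12 astrocyte markers with progesterone against placebo, 6 were lower, 5 of them at an unadjusted p under 0.05 (GFAP, SOX9, GLUL, FGFR3 and NTRK2) where 8.24% of all probe sets had such a p, and 6 were higher. For both hormones against progesterone 7 were higher and 5 lower, with SOX9, GLUL and FGFR3 higher and S100B lower at an unadjusted p under 0.05 (7.71% of all), and 4 of 12 did not overlap (15.7% of all). The summed astrocyte intensity nevertheless ranged from 15659 to 16452 with placebo, 16690 to 18148 under estrogen, 17563 to 18548 under progesterone and 16879 to 18538 under the combination. The markers listed for inhibitory neurons (13 of 16 with a probe set) share a gene with the cerebellum list. Their sums ranged from 4159 to 4518, 4393 to 4633, 3846 to 4344 and 4434 to 4938 in the same order. Whether these genes mark only inhibitory neurons in this tissue was not tested. Sums of serotonin neuron markers (8 of 10) ranged from 1153 to 1512, 1346 to 1400, 985 to 1124 and 1033 to 1407. General neuron markers ranged from 38764 to 44120 with placebo and 41297 to 47428 with progesterone.

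In these sums all 3 progesterone arrays lay below all placebo arrays for the serotonin markers, and below all arrays with both hormones for the inhibitory markers. By gene, 6 of the 7 tested serotonin markers were lower and 1 higher with progesterone against placebo, and 2 did not overlap (16.7% of all probe sets). For both hormones against progesterone, 9 of the 11 tested inhibitory markers were higher and 2 lower, and 1 did not overlap (15.7% of all). The astrocyte sum went the other way, with every hormone array above every placebo array, but such sums weigh the brightest probe sets most. By gene, 9 of the 12 astrocyte markers were lower and 3 higher with both hormones against placebo. With estrogen against placebo 8 were higher and 4 lower. Limma called 0 genes in each of these 4 lists. The summed microglia markers were 1115 to 1183 with estrogen, below the 1268 to 1614 with placebo. The meninges markers were 546 to 603.6 with progesterone, below the 603.9 to 803 with both hormones, where 803 came from the array with high ribosomal signal. By gene, 1 of 7 tested microglia markers did not overlap between estrogen and placebo (6.13% of all probe sets). Between both hormones and progesterone 0 of 4 tested meninges markers did so (15.7% of all). Sums of oligodendrocyte, endothelium and cerebellum markers overlapped in both of these comparisons and in progesterone against placebo. The part of such marker levels in the GABA gene readings was not tested. In tissue of mixed cells, fewer cells of a type and less RNA per cell cannot be told apart.

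The members differed in how much the 3 arrays of a group spread. The residual SD on the log2 scale was 0.21 for GABBR1, 0.23 for GAD2 and 0.26 for GAD1, under the median of 0.30 over all tested probe sets. It was 0.41 for SLC6A11, 0.43 for ALDH5A1 and 0.52 for ABAT, above that median. Single groups departed from this order. With progesterone the SD of the normalised log2 values was 0.17 for ALDH5A1 and 0.40 for GAD1, and with both hormones it was 0.21 for ABAT and 0.28 for GAD2.

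Each member's profile over the 12 arrays was compared with 6679 other single-symbol probe sets that were tested. The most alike by Pearson correlation was MAT2A for GAD1 (r = 0.96), MPP3 for GAD2 (0.86), FKBP1A for SLC6A11 (0.94), SCD for ABAT (0.92), BABAM2 for ALDH5A1 (0.95) and ACTA1 for GABBR1 (0.84). The next were PCLO, a scaffold of presynaptic release sites (0.94), CHMP1A (0.86), the serotonin receptor HTR6 (0.91), GGCX (0.83), the growth hormone receptor GHR (0.90) and SPAG5 (0.83) in the same order. These are the highest of many correlations over the same 12 arrays and are given as a description. No member was among the 2 nearest profiles of another, and between GAD1 and GAD2 the correlation was 0.18. The strongest among the members were -0.76 between SLC6A11 and ALDH5A1, 0.61 between SLC6A11 and ABAT and -0.60 between ABAT and ALDH5A1. All correlations between members include the 2 arrays of high ribosomal signal, and none was computed without them.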

How the data were processed

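For each of 12 arrays the authors deposited a linear intensity for 12625 probe sets, and from the values the arrays share a 2% trimmed mean. The sources used here do not name the summary method, its software or detection calls. Without the 67 array controls, 10943 probe sets carried 1 symbol, 545 several and 1070 none in the platform's probe table. Intensities were turned into log2(intensity + 8.26), with the 10th percentile of all values as offset, and were quantile normalized because array medians spanned 0.21. The lowest 40% of probe sets by mean were left out, which removed 5023 and left 7535. Group means were fitted with limma 3.58.1 (R 4.3.3, lmFit and eBayes, 2-sided, all 12 arrays). The fitting step alone was tried on simulated data with independent noise, which does not test the offset, normalization or filter. Changes on this scale are understated for dim probe sets. Replicates are separate animals, and 3 arrays per group limit the precision. Genes of the lists entered by their brightest probe set. All member probe sets were named, with SLC6A13, SLC32A1, GABBR2, GLUL and GABARAP, any list gene past the threshold, and the 2 most alike profiles per member. Outside this rule, KCNJ6, GABRB2 and the astrocyte markers other than GLUL were named for an unadjusted p under 0.05. Deviations from group means of same-numbered arrays correlated at 0.41, 0.30 and 0.13 between estrogen and both hormones. In the first pair both arrays had high ribosomal signal, and estrogen array 3 correlated more with both-hormone array 2, at 0.21. The labels do not say that the numbers pair animals, and these values cannot settle it. Alternatives covered normalization, offset, filter, variance model, array weights, samples in the fit, a replicate block and left-out arrays. The members and lists were chosen with earlier results of these data known. 1 further gene of the naming rule is not reported here. Sequences and coordinates of the probe sets were not used here.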

Additional observations from a re-analysis of the deposited data

How the results depend on the processing

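Limma called 0 of the tested members under every alternative run in each of the 8 comparisons. Of 822 alternative values of the members' 36 log2 changes, 780 kept their sign, 42 turned it and 0 passed the threshold, with a lowest adjusted p of 0.205. For SLC6A11, both hormones against progesterone stayed between 0.63 and 1.06. ALDH5A1 has no value where the lowest 60% were left out, since it then fell under the filter. Dim signal limits SLC6A12 and the second probe sets.

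With array weights, SLC6A11 with estrogen was -0.030, ABAT with both hormones -0.014, GAD1 and ALDH5A1 for both hormones against estrogen -0.00095 and -0.12, and the GABBR1 interaction -0.10. Without both arrays of high ribosomal signal, GAD1 was 0.034 with estrogen and 0.057 with both hormones, and GAD2 was 0.052 with both hormones, 0.032 for both against estrogen, 0.073 for both against progesterone and 0.053 for the interaction.

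Leaving out 1 array at a time gave, with estrogen, -0.068 to 0.19 for GAD2, -0.52 to 0.039 for ABAT and -0.24 to 0.034 for GAD1. With progesterone GAD2 was -0.14 to 0.058. With both hormones GAD2 was -0.23 to 0.051, GABBR1 -0.077 to 0.23 and GAD1 -0.12 to 0.056. For both against estrogen GAD2 was -0.28 to 0.0016, SLC6A11 -0.12 to 0.35, GAD1 -0.071 to 0.20 and ALDH5A1 -0.16 to 0.43. For both against progesterone GAD2 was -0.21 to 0.072. The interaction was -0.26 to 0.022 for GAD2, -0.047 to 0.26 for GABBR1 and -0.40 to 0.19 for ALDH5A1. The cause of these turns was not tested.

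Over all probe sets, calls ranged from 0 to 11 with progesterone against placebo (3 as reported, 11 without both arrays of high ribosomal signal), from 0 to 12 for both hormones against progesterone (1 as reported, 12 with array weights) and from 0 to 10 in the F test (4 as reported). Only between estrogen and both hormones did every same-numbered pair have a correlation above 0.1. Between placebo and both hormones the same-numbered pairs gave 0.105, 0.088 and 0.102, and placebo array 1 with progesterone array 2 gave 0.21. These values do not settle whether the numbers pair animals or only name them. A block within the estrogen and both-hormone groups, chosen after seeing the data, changed no call. With the replicate block 0 members were called, SLC6A11 for both hormones against progesterone was 0.85 with an adjusted p of 0.470, and the calls over all probe sets went from 3 to 0 with progesterone, 1 to 0 for both against progesterone and 4 to 0 in the F test.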

Other observations

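A probe set that the platform table assigns to both UBD and GABBR1 was left out of the members because it carries 2 symbols. It read 5.45 to 14.5 with placebo, 9.70 to 21.2 with estrogen, 5.86 to 10.6 with progesterone and 4.54 to 15.2 with both hormones, under the filter and near the offset, and its groups overlapped throughout. In the macaque RefSeq annotation SLC6A12 lies next to SLC6A13, a gene of the same family. GABBR1 lies next to MOG, a myelin gene.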
